A study of Mus musculus with 3 samples.

Results

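Gamma-delta (γδ) T cells were examined among the CD45+ leukocytes of KP1 tumors, a transplanted mouse model of small-cell lung cancer with Rb and p53 mutated. They were selected on their own transcripts. Barcodes were kept where 200 or more genes were detected and no more than 20% of transcripts were mitochondrial. Among these, a γδ T cell carried at least 2 unique molecular identifiers (UMIs, each tagging 1 captured RNA molecule) of Cd3d, Cd3e and Cd3g together, at least 1 of Trdc and at least 1 of Trgc1 and Trgc4 together. It carried no Cd4 or Foxp3 UMI and fewer than 5 UMIs of the myeloid genes Lyz2, C1qa, C1qb, S100a8 and S100a9. This rule took 1080 of 71909 kept cells in the 3 libraries. Because Trdc, Trgc1, Trgc4 and the Cd3 genes chose the cells, their levels below are a description.

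All mice were wild-type B6129SF1/J F1 animals that received 500000 KP1 cells under the skin. The mono-IL-10 group (Supermono-10 in the labels) received a monomeric, mutated human IL-10 at 3 µg per dose every other day. The IL-10/2-Trikine group received, at the same dose and days, that cytokine joined to a mutated IL-2 which binds the IL-2 receptor β chain without its common γ partner. The combination group received the IL-10/2-Trikine with an antibody to the checkpoint receptor PD-1 at 200 µg per dose. The labels place the cytokine between days 7 and 19, the antibody on days 7, 11, 15 and 19, and tumor collection on day 19. Elsewhere the study gives an earlier first cytokine day for this model. The protocol text can also be read as giving the antibody to every group, but only the combination carries it in its title and treatment label, and these were followed. If every group did receive it, PD-1 blockade would not be what the combination adds. The labels call the cells mouse T cells, although the sort was for live CD45+ cells and macrophage, neutrophil and B cell transcripts were abundant outside the γδ gate. Each group was 1 library, the number of mice behind it is not given in the sources used here, and no untreated library was analysed here. No value therefore carries a replicate error, no test between treatments was possible, and every interval below is a 95% interval that covers counting error only. Values are given in the order mono-IL-10, IL-10/2-Trikine and combination throughout. The libraries held 158570946, 197176873 and 175794959 UMIs and 22235, 22707 and 26967 kept cells, more cells than the study's methods state for the same filters. The libraries shared 137, 161 and 180 kept barcodes in pairs, and a doublet caller marked 14.4%, 16.8% and 4.09% of kept cells.

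A γδ T cell carries a receptor built from one γ and one δ chain in place of the α and β chains of conventional T cells. In the mouse, γδ cells are grouped by the γ variable segment they use, and many of them respond without classical peptide presentation. Broadly, one kind makes interferon-γ and carries NK cell receptors, and another makes IL-17. The genes of the δ chain lie inside the α chain locus.

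The γ constant genes lie in one cluster on chromosome 13 in GRCm38 (GENCODE M21), with Trgc1 at chr13:19214103-19217024, Trgc2 at chr13:19304649-19307551 on the minus strand and Trgc4 at chr13:19344558-19352756. Trdc lies at chr14:54142851-54148868. The rule counted Trgc1 and Trgc4 but not Trgc2, so the opening 120 coding bases of these 3 genes are shown to make their likeness visible. They are written from 5′ to 3′, and capitals mark bases that differ from Trgc1.
Trgc1: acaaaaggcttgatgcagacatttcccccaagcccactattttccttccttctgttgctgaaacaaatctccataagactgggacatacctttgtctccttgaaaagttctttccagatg
Trgc2: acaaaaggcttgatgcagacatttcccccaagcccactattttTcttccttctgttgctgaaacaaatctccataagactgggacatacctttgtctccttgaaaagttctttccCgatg
Trgc4: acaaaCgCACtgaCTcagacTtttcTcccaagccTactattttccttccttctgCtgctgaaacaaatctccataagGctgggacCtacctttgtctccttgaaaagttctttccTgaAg
Trgc2 differed from Trgc1 at 2 of these bases and Trgc4 at 14. Over the whole first coding exon of 330 bases, 97.3% of the bases of Trgc1 and Trgc2 were identical, against 82.1% for Trgc1 and Trgc4. Of the 835 stretches of 90 bases in the annotated Trgc1 transcript, 15 also occurred in Trgc2 and none in Trgc4. The β constant genes were closer still, since the first coding exons of Trbc1 and Trbc2 differed at 1 of 375 bases, and 203 of 648 such stretches of Trbc1 also occurred in Trbc2. The division of UMIs between Trbc1 and Trbc2 was therefore treated as uncertain, whereas few stretches are shared by Trgc1 and Trgc2. Stretches were counted along the whole transcript. Where the reads of these 3′ libraries fell in it was not examined.

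The γδ T cells numbered 114, 666 and 300 in the 3 libraries, or 0.513%, 2.93% and 1.11% of the kept cells. The intervals of these shares were 0.423 to 0.616, 2.72 to 3.16 and 0.991 to 1.24. The share in the IL-10/2-Trikine library was 5.72 (4.69 to 6.97) times that in the mono-IL-10 library, and the share in the combination library was 0.379 (0.331 to 0.434) times that in the IL-10/2-Trikine library. Taken over cells with at least 2 Cd3 UMIs and under 5 myeloid UMIs, 8251, 12919 and 12808 in number, γδ T cells made up 1.38%, 5.16% and 2.34%, with ratios of 3.73 (3.06 to 4.54) and 0.454 (0.397 to 0.520). The IL-10/2-Trikine library thus held the highest share under both denominators, and the intervals of the 3 libraries did not overlap.

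Other cells of the same libraries were gated for comparison. Alpha-beta (αβ) CD8 T cells carried Cd3, an αβ constant gene UMI and Cd8a or Cd8b1 but no Trdc, and they made up 20.6%, 22.1% and 17.1% of kept cells, with ratios of 1.07 (1.04 to 1.11) and 0.773 (0.746 to 0.801). T cells without Trdc that carried Ncr1 or Klrb1c made up 1.201%, 6.91% and 3.36%, with ratios of 5.75 (5.06 to 6.54) and 0.486 (0.449 to 0.526). NK cells, taken as Ncr1-bearing cells without Cd3, made up 2.45%, 3.89% and 4.16%, with ratios of 1.59 (1.43 to 1.76) and 1.07 (0.979 to 1.16). The shares of γδ cells and of T cells with NK receptors thus had the same order over the libraries, and both differed by more than the share of αβ CD8 T cells did. Macrophages without Cd3 stood at 16.7%, 7.09% and 13.04% and B cells at 2.37%, 0.427% and 0.375%, so the denominators changed as well. The number of γδ cells per tumor was not measured, and a share of sorted cells cannot give it.

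**Figure D1:**
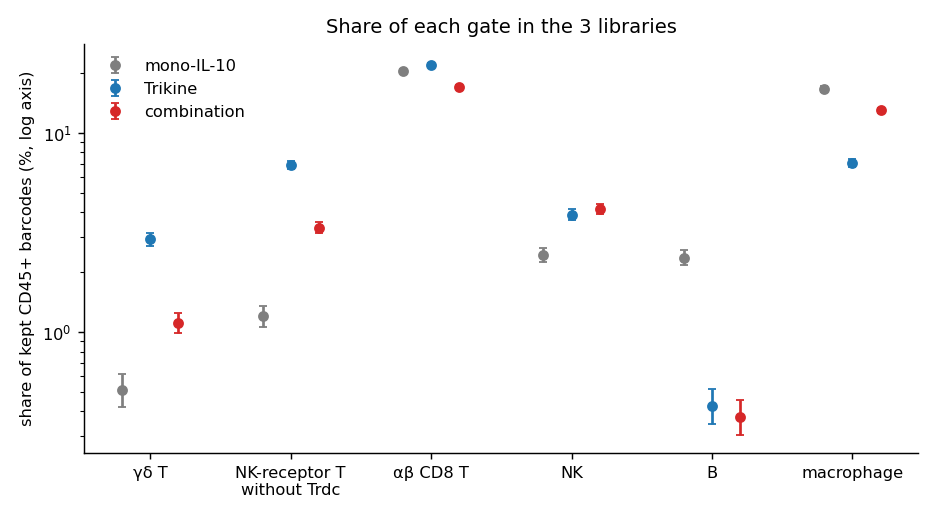
Share of kept CD45+ barcodes (percent, log axis) that fell in each of 6 gates, with exact binomial 95% intervals and 1 library per color. γδ T cells stood at 0.513%, 2.93% and 1.11% in the mono-IL-10, IL-10/2-Trikine and combination libraries.

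Median depth of the γδ T cells was 4403, 5912 and 4384 UMIs per cell, close to that of αβ CD8 T cells at 4420, 5394.5 and 3778. The median Trdc count was 4.5, 6 and 5 UMIs, exactly 1 Trdc UMI was seen in 19, 74 and 45 cells, exactly 1 UMI of Trgc1 and Trgc4 together in 39, 201 and 98, and exactly 2 Cd3 UMIs in 5, 14 and 12. Many cells thus met a condition of the rule by 1 UMI. Just inside the myeloid limit, with 4 such UMIs, were 1, 2 and 0 cells. Just outside the rule, 82, 262 and 214 T cells carried Trdc but neither Trgc1 nor Trgc4, 12, 88 and 71 cells met every other condition but carried Cd4 or Foxp3, 8, 29 and 23 had under 2 Cd3 UMIs, and 24, 45 and 39 had 5 or more myeloid UMIs. A further 250, 1550 and 896 T cells carried Trgc1 or Trgc4 without Trdc. The last group is larger than the γδ gate in every library. γ constant transcripts were also present in αβ CD8 T cells, as given below.

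The receptor genes that the rule did not read gave a mixed picture. Trgc2, the γ constant gene left out of the rule, was detected in 50.9%, 70.7% and 67.7% of γδ cells, against 14.1%, 38% and 31.9% of αβ CD8 T cells and 0.55%, 1.58% and 1.16% of NK cells. Any γ variable (V) segment was detected in 62.3%, 73.9% and 65.7% of γδ cells, against 10.3%, 31.2% and 22.9% and 1.28%, 3.05% and 1.963% in those gates. Because a deeper cell shows more genes, each cell was also thinned at random to 1000 UMIs. Trgc2 was then seen in 21.9%, 27.8% and 23.7% of γδ cells and 4.61%, 11.2% and 11.9% of αβ CD8 T cells. The γ transcripts were thus more frequent in the γδ gate than in αβ CD8 T cells of the same library, but not confined to it. The genes that the rule counted also differed between libraries in αβ CD8 T cells. Their thinned share with Trgc4 had a ratio of 6.08 (3.54 to 10.4) in IL-10/2-Trikine over mono-IL-10, and with Trgc1 3.65 (1.94 to 6.86). In combination over IL-10/2-Trikine these ratios were 0.699 (0.512 to 0.955) and 2.48 (1.77 to 3.48). The part of this in the share of γδ cells was not tested.

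Levels were taken as CPM, the UMIs of a gene summed over the γδ cells of a library and scaled from the 687113, 5442293 and 1898868 UMIs of those cells to 1000000. Trdc stood at 1033, 895 and 965 CPM, Trgc1 at 191, 173 and 204 and Trgc4 at 242, 262 and 283. These genes chose the cells and differed little between libraries. Trgc2, not used by the rule, stood at 215, 318 and 339 CPM, 1.47 (1.25 to 1.76) times as high in the IL-10/2-Trikine library as in the mono-IL-10 library and 1.07 (0.973 to 1.17) times as high in the combination as in the IL-10/2-Trikine library. The share of αβ CD8 T cells with a Trgc2 UMI was also lowest in the mono-IL-10 library. Trgc3 was represented by 1, 7 and 0 UMIs.

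Among V segments, Trgv2 was found in 49, 385 and 150 cells, Trgv1 in 41, 256 and 87 and Trgv4 in 11, 68 and 25. As shares, Trgv2 was detected in 42.98%, 57.8% and 50%, Trgv1 in 35.96%, 38.4% and 29% and Trgv4 in 9.65%, 10.2% and 8.33% of γδ cells. Trgv5, known from epidermal γδ cells, was found in 0, 0 and 1 cells, Trgv6 in 1, 2 and 0 and Trgv7, known from the gut epithelium, in 1, 3 and 0. Trgv3 was found in 0, 16 and 1 cells. These shares were not thinned, and the IL-10/2-Trikine cells were the deepest. After thinning, the share with any γ V segment had a ratio of 0.972 (0.686 to 1.38) in IL-10/2-Trikine over mono-IL-10. For Trgv2 it was 1.03 (0.650 to 1.62). The order Trgv2, Trgv1, Trgv4 held in each library, although in the mono-IL-10 library the intervals of Trgv2 (33.7 to 52.6) and Trgv1 (27.2 to 45.5) overlapped. Trgv2 is the least specific of them here, since it was also detected in 9.85%, 30.1% and 21.1% of αβ CD8 T cells, against 0.788%, 3.55% and 2.35% for Trgv1 and 0.0656%, 0.678% and 0.152% for Trgv4.

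V and constant genes were compared within cells. With the 3 libraries pooled as a description, Trgc4 was detected in 89.1% (85.5 to 92) of Trgv1 cells and 72.1% (68.6 to 75.4) of the others, and Trgv1 lies directly before Trgc4 on the annotation. Trgc2 was detected in 82.2% (78.8 to 85.2) of Trgv2 cells and 50.8% (46.3 to 55.3) of the others, and Trgv2 and Trgc2 are the segments on the minus strand. Trgc1 was detected in 79.8% (70.8 to 87.04) of Trgv4 cells and 57.5% (54.3 to 60.6) of the others, and Trgv4 lies in the group before Trgc1. In the mono-IL-10 library alone, with 11 Trgv4 cells, Trgc1 was found in 54.5% of them and 56.3% of the others. Pairs that are not neighbors went both ways. Trgc1 was found in 55.99% of Trgv1 cells and 61.6% of the others, but Trgc2 was found in 73.96% of Trgv1 cells and 64.4% of the others. Likewise Trgc1 was found in 63.4% of Trgv2 cells against 55.2%, and Trgc2 in 75.96% of Trgv4 cells against 66.9%. A higher share in cells with a V segment was thus not particular to neighboring pairs. Both Trgv1 and Trgv2 were found in 244 of 1080 cells, so a V segment UMI did not assign a cell to 1 chain. Detection of any 2 genes in a cell also depends on that cell's depth, and the rule's own use of Trgc1 or Trgc4 shapes these shares.

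Segments that can serve the δ chain were seen in fewer cells, 20.2%, 28.1% and 15.7% for any of those listed. After thinning, that share had a ratio of 0.856 (0.411 to 1.78) in IL-10/2-Trikine over mono-IL-10. In combination over IL-10/2-Trikine it was 0.4995 (0.246 to 1.02), and both intervals include 1. Trav13-4-dv7 was the most frequent in the IL-10/2-Trikine library but not in the others, found in 3, 64 and 2 cells, or 2.63%, 9.61% and 0.667%. Trdv4 was found in 4, 31 and 16 cells, Trav15-1-dv6-1 in 4, 20 and 9, Trav15-2-dv6-2 in 4, 25 and 1, Trdv5 in 3, 18 and 7 and Trdv1 in 2, 12 and 8. Trav13-4-dv7 was thus more frequent in the IL-10/2-Trikine library than in the combination library, with intervals of 7.48 to 12.1% and 0.0809 to 2.39%. Whether these cells are copies of 1 clone was not tested, since 3′ libraries of this kind hold no junction sequence in the gene counts.

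αβ chain transcripts were common in the γδ T cells. At least 1 UMI of Trac, Trbc1 or Trbc2 was detected in 94.7% (88.9 to 98.04), 94.3% (92.3 to 95.9) and 95.3% (92.3 to 97.4) of them, and after thinning in 69.3%, 70.3% and 67.3%. Only 58 of 1080 cells, 6, 38 and 14 in the 3 libraries, carried none. The 3 genes differed among themselves. Trbc2 was detected in 84.2%, 90.2% and 86.3% of γδ cells, Trbc1 in 66.7%, 59.01% and 58.7% and Trac, the constant gene of the α chain, in 42.1%, 55.1% and 47.7%. The intervals of the thinned shares, 60.0 to 77.6, 66.6 to 73.7 and 61.7 to 72.6, overlapped between the libraries.

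The level of Trac placed the γδ cells between αβ CD8 T cells and NK cells. Thinned to 1000 UMIs, 13.2%, 18.02% and 17.3% of γδ cells showed a Trac UMI, against 67.6%, 63.9% and 67.9% of αβ CD8 T cells and 2.79%, 2.65% and 3.79% of NK cells. Trbc1 did not separate the gates in this way, since it was detected in 24.6%, 26.04% and 23.8% of thinned NK cells and 29.8%, 26.3% and 23% of thinned γδ cells. As given above, the division of UMIs between Trbc1 and Trbc2 was treated as uncertain. B cells, which should lack T cell receptor chains, showed any of the 3 genes in 3.23%, 4.12% and 5.94% after thinning and Trac in 0.949%, 0% and 0.99%, at median depths of 3528, 3956 and 3972 UMIs before it. Trdc was seen in none of the 527, 97 and 101 B cells, which by a limit of 3 counts allows shares of up to 0.569%, 3.09% and 2.97%. This limit is lower than the upper end of an exact binomial interval. It was seen in 18.2%, 19.2% and 16.7% of NK cells. The αβ transcripts in γδ cells therefore exceeded the level seen in B cells, and Trdc was also present in cells without a Cd3 UMI.

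The receptor transcripts also divided the γδ cells among themselves. At least 3 Trac UMIs were found in 14, 156 and 55 cells, and Trac exceeded Trdc in 6, 71 and 26. In cells with exactly 1 Trdc UMI, Trac stood at 352, 435 and 483 CPM, and in cells with at least 5 Trdc UMIs it stood at 222, 219 and 252 CPM. Cells with 2 to 4 Trdc UMIs stood at 196, 275 and 285 CPM. The share of cells with a Trac UMI had another order, at 47.4%, 55.4% and 46.7% with 1 Trdc UMI, 21.1%, 40.3% and 34.95% with 2 to 4 and 54.4%, 61.8% and 56.6% with 5 or more, and the last cells were the deepest, at medians of 5166, 6791.5 and 6144.5 UMIs. A β V segment was detected in 12.3%, 9.46% and 8.33% of γδ cells and an α V segment in 7.02%, 4.505% and 4%, against 27.4%, 29.9% and 22.1% and 18.7%, 14.3% and 11.7% in αβ CD8 T cells. Cd8a or Cd8b1, the chains of the CD8 coreceptor, was detected in 20.1% of γδ cells with a Trac UMI and 5.75% of those without, a pair of groups whose median depth also differed (5857 and 3941.5 UMIs in the mono-IL-10 library). Cells called as doublets, barcodes scored as mixtures of 2 cells, numbered 19, 109 and 3 among the γδ cells. Ncr1 or Klrb1c was detected in 56.7% of γδ cells without Trac and 41.9% of those with it, although the latter were deeper. How many of the γδ cells also expressed a rearranged αβ receptor, or shared a droplet with an αβ T cell, was not tested.

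**Figure D2:**
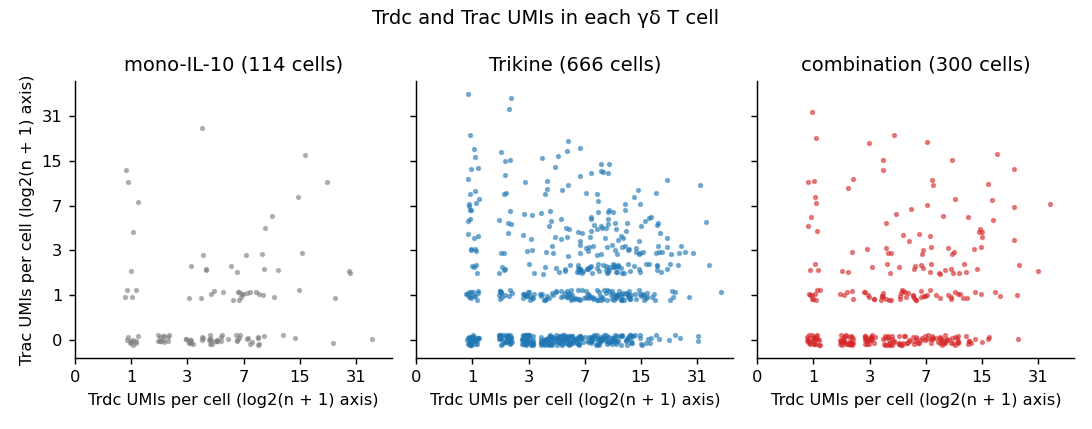
UMIs of Trdc (x) and Trac (y) in each γδ T cell, 1 panel per library, on log2(n + 1) axes with a small random offset so that points do not hide each other. Of 1080 cells, 522 lay at 0 Trac UMIs and 103 carried more Trac than Trdc UMIs.

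NK cell receptors were widespread in the γδ T cells. Any of 24 listed receptor genes was detected in 93.9% (87.8 to 97.5), 99.7% (98.9 to 99.96) and 99% (97.1 to 99.8) of them, and a median of 7, 8 and 8 of the 24 per cell. This figure is not specific by itself, since macrophages reached 93.9%, 89.9% and 91.8%, and Klrb1b and Cd244a are also macrophage genes. Without those 2 genes the share in γδ cells was 93.9%, 99.5% and 98.7%. B cells stood at 11.6%, 16.5% and 22.8%. An NK receptor together with an αβ constant gene was found in 101, 627 and 283 γδ cells.

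The receptors fell into those shared with αβ CD8 T cells and those seldom found there. Klrd1, which encodes CD94, was detected in 87.7%, 95.3% and 87.3% of γδ cells, its partner Klrc1 (NKG2A) in 56.1%, 80.8% and 65.7% and the activating receptor gene Klrk1 (NKG2D) in 71.1%, 86.04% and 78.3%. In αβ CD8 T cells, Klrd1 was detected in 72.3%, 86.7% and 76.9%, Klrc1 in 54.4%, 74.8% and 60.2% and Klrk1 in 52.7%, 84.5% and 70.2%. Ncr1, which encodes NKp46, was detected in 28.9%, 26.4% and 32.3% of γδ cells and 1.18%, 2.77% and 2.302% of αβ CD8 T cells. Klrb1c, which encodes NK1.1, was detected in 35.96%, 38.3% and 41.3% and 2.14%, 6.92% and 4.104%. Any Ly49 gene, the Klra receptors for MHC class I, was detected in 57.02%, 68.5% and 72.3% of γδ cells, 8.69%, 22.9% and 17.7% of αβ CD8 T cells and 88.6%, 83.7% and 82.4% of NK cells. After thinning, Ncr1 or Klrb1c remained in 17.5%, 16.7% and 21.7% of γδ cells, 0.944%, 1.78% and 1.51% of αβ CD8 T cells and 0.19%, 0% and 0% of B cells. Ncr1, Klrb1c and the Ly49 genes thus set the γδ cells apart from αβ CD8 T cells in all 3 libraries. They were not particular to γδ cells, since the T cells without Trdc gated above were chosen by Ncr1 or Klrb1c. Those T cells had the Ly49 gene Klra1 at 192, 388 and 320 CPM, against 147, 164 and 169 in γδ cells. Klrd1, Klrc1 and Klrk1 were frequent in both.

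**Figure D3:**
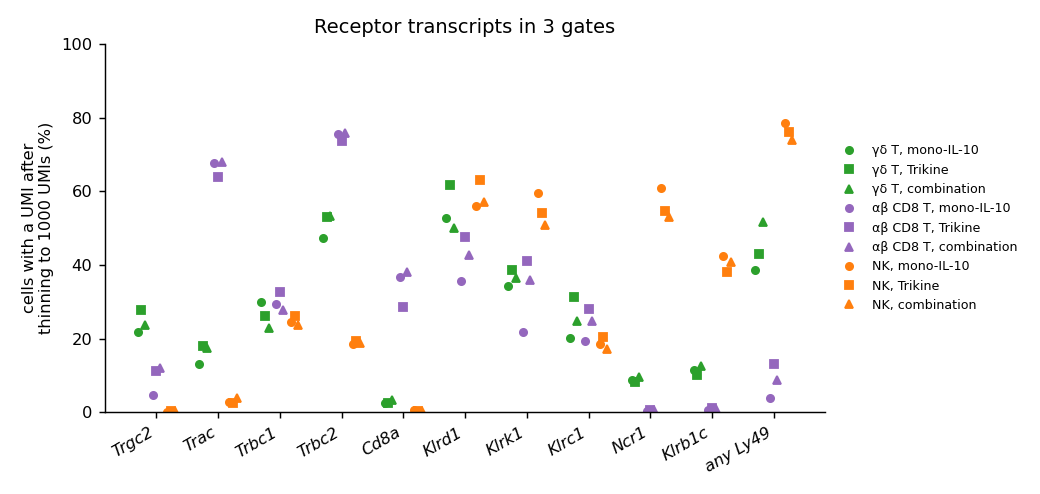
Percent of cells with a UMI of each receptor gene after each cell was thinned to 1000 UMIs, in γδ T cells, αβ CD8 T cells and NK cells, with 1 symbol per library. The αβ CD8 gate required an αβ constant gene and Cd8a or Cd8b1, and the NK gate required Ncr1. Trac lay between 13.2% and 18.0% in γδ cells and between 63.9% and 67.9% in αβ CD8 T cells.

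Levels of the NK receptors were compared between treatments. Of 24 receptor genes, 1 was at least 2-fold higher in CPM and 1 at least 2-fold lower in the IL-10/2-Trikine library than in the mono-IL-10 library, with a median log2 ratio of -0.10 against -0.12 over all genes measured. Across all 9933 genes with at least 20 UMIs in that pair, 6.73% were at least 2-fold higher and 8.33% at least 2-fold lower. The receptor higher in the IL-10/2-Trikine library was Klra6, at 40.8, 86.5 and 102 CPM, with a ratio of 2.12 (1.45 to 3.23). Klra4 stood at 100.4, 29.95 and 48.98 CPM, with a ratio of 0.298 (0.224 to 0.401), and 29 of its 69 UMIs in the mono-IL-10 library came from 1 cell. Between the combination and the IL-10/2-Trikine library, Klrb1a at 18.9, 13.8 and 29.5 CPM and Klra8 at 16.01, 9.37 and 30.5 CPM were the 2 of 24 past 2-fold higher, and none was 2-fold lower. In that pair 2.64% of 10180 genes were at least 2-fold higher and 2.81% at least 2-fold lower. Klra8 was carried by 1, 24 and 16 cells, so its level rests on few cells. Klrd1 at 745, 977 and 817 CPM and Klrc1 at 239, 336 and 282 CPM were highest in the IL-10/2-Trikine library, by less than 2-fold.

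Set against other lymphocytes of the same library, the γδ cells shared features with NK cells and with T cells. Compared with αβ CD8 T cells, genes with large log2 differences in CPM in all 3 libraries were Ncr1 (4.43, 3.63 and 3.72), Clnk, a signaling adaptor (5.26, 2.70 and 3.09), Klrb1c (4.26, 2.47 and 3.38), Tyrobp, the adaptor of several activating receptors (3.00, 2.23 and 2.55), and Fcer1g (2.69, 1.88 and 2.73). Lower than in αβ CD8 T cells, besides the Cd8 genes that define that gate, were the T cell surface genes Cd5 (-1.88, -2.45 and -2.79) and Cd6 (-1.82, -1.48 and -2.92), the thymocyte selection gene Themis (-1.48, -1.58 and -2.30) and the checkpoint receptor gene Pdcd1 (-1.03, -1.17 and -1.15). Compared with NK cells, which the gate required to lack Cd3, γδ cells had more Themis (4.12, 5.14 and 3.97), Bcl11b, a T lineage factor (3.90, 3.50 and 3.26), Pdcd1 (4.01, 2.75 and 3.90) and Ikzf2, which encodes Helios (2.87, 2.44 and 2.61). They had less Klra8 (-5.02, -4.95 and -3.43), Itgam (-3.60, -2.47 and -3.19) and the perforin gene Prf1 (-2.42, -3.16 and -2.59). Against T cells with NK receptors but no Trdc, γδ cells had less Cd8a (-1.73, -1.11 and -1.29), Klra9 (-1.06, -1.67 and -1.82) and Prf1 (-0.94, -0.84 and -0.90) and more Plac8 (0.59, 0.73 and 0.74). These are differences between gates within a library, and genes used by a gate had to differ.

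Within each library, the γδ cells also differed among themselves in effector genes. Cells with a Gzmk UMI, 34, 432 and 144 in number, had Gzma at 9143, 17052 and 12467 CPM, and cells without it at 1895, 4371 and 3765. They had Ifitm1 at 59.8, 969 and 233 CPM, against 2.48, 175 and 39.01. Gzma and Ifitm1 thus had higher summed levels in cells with Gzmk in each library, although Ifitm1 rested on 18 UMIs in the mono-IL-10 library. Detection of these genes in the same cell was not counted. Ncr1 went the other way, at 84.4, 79.3 and 67.02 CPM in cells with Gzmk and 159, 150.0 and 176 in cells without. Cells with and without Trac had Gzma at 5874, 14283 and 9042 and 3618, 12679.8 and 8455 CPM, so its high level in the IL-10/2-Trikine library was present on both sides of that split. Mki67 stood at 349, 604 and 368 CPM in cells with Trac and 211, 367 and 108 in those without. These splits were chosen after the data were seen, and cells with a UMI of a gene are deeper than those without.

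The first comparison, IL-10/2-Trikine over mono-IL-10, addresses what is added when the IL-2 receptor is engaged along with the IL-10 receptor. In γδ T cells the IL-10/2-Trikine library had higher levels of Gzma, Gzmk, the 3 Ifitm genes and many cell cycle genes, and lower levels of many immediate-early and heat shock genes. Of 9933 genes, 668 were at least 2-fold higher and 827 at least 2-fold lower. Among them, 356 and 671 had a 95% counting interval that also excluded a ratio of 1. With TMM factors, a scaling that sets the bulk of genes level, the counts were 789 and 635, so the balance between higher and lower genes depends on the scaling. The median log2 ratio over all genes was -0.12, against which the list medians below are to be read, and the mono-IL-10 cells supplied 687113 UMIs against 5442293.

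The Ifitm genes are interferon-inducible membrane proteins that restrict virus entry. Ifitm1 had the largest ratio of all genes that reached 50 CPM in one library of the pair. It stood at 26.2, 764 and 152 CPM and was carried by 6, 289 and 51 cells, a ratio of 29.2 (18.4 to 49.2). Ifitm2 stood at 33.5, 299 and 106 CPM with a ratio of 8.94 (5.93 to 14.1), and Ifitm3 at 30.6, 139 and 60.6 CPM with a ratio of 4.56 (2.96 to 7.42). The 3 genes did not stand for interferon-stimulated genes as a whole. Of 25 such genes measured, these 3 were the only ones at least 2-fold higher and 8 were at least 2-fold lower, against 6.73% and 8.33% of all genes, and the median log2 ratio was -0.77. In αβ CD8 T cells it was -0.86 and in NK cells -0.53. Among the 6 and 38 cells without an αβ constant gene UMI, the median of the genes still measured was 1.27. Genes with too few UMIs in those cells drop out, so this median need not cover the same 25 genes. It is therefore not comparable with -0.77. Iigp1 stood at 24.7, 5.51 and 18.96 CPM and Gbp4 at 129.5, 49.6 and 83.2. Ifit1, also among the 25, stood at 34.9, 2.76 and 5.79 CPM. It reached the UMI minimum of the pair only with its mono-IL-10 UMIs, so its ratio is no support for a lower level. Ifitm1 was also higher in other cells of the IL-10/2-Trikine library, with 131, 616 and 531 CPM in αβ CD8 T cells, 73.7, 723 and 186 in T cells with NK receptors but no Trdc, 13.3, 88.2 and 54.02 in NK cells and 12.7, 20.8 and 16.4 in B cells.

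Cytotoxic genes differed in direction. Gzma, which encodes granzyme A, stood at 4896, 13774 and 8825 CPM with a ratio of 2.81 (2.72 to 2.91) and was detected in 45.6%, 86.8% and 75% of γδ cells. Gzmk stood at 176, 665 and 339 CPM with a ratio of 3.77 (3.15 to 4.56), in 34, 432 and 144 cells. Granzyme transcripts also reached other cells, since Gzma was detected in 10.8%, 27.8% and 46.5% of B cells. Gzmb, granzyme B, stood at 2559, 4416 and 4682 CPM with a ratio of 1.73 (1.64 to 1.81). The perforin gene Prf1, at 438, 250.1 and 395 CPM, had a ratio of 0.571 (0.504 to 0.649), although 77 of the 301 Prf1 UMIs of the mono-IL-10 library came from 1 cell. After thinning, the share of γδ cells with a Prf1 UMI was not lower, at a ratio of 1.08 (0.695 to 1.68). Tnfsf10, which encodes TRAIL, stood at 118, 60.8 and 72.1. Nkg7, Srgn and Lamp1, genes of the cytotoxic granule, had ratios of 1.02, 1.03 and 1.004. Of 11 cytotoxic genes measured, 2 were at least 2-fold higher and 1 was at least 2-fold lower, against 6.73% and 8.33% of all genes, and the median log2 ratio was 0.03. The one lower gene, Gzmc, rested on 5, 59 and 17 cells, and 86 of its 90 UMIs in the mono-IL-10 library came from 1 cell.

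Summed levels of effector cytokine and chemokine genes were lower in the IL-10/2-Trikine library. Ifng, which encodes interferon-γ, stood at 97.5, 30.9 and 70.6 CPM with a ratio of 0.317 (0.237 to 0.427). After thinning, the share of γδ cells with an Ifng UMI had a ratio of 0.538 (0.235 to 1.23), an interval that includes 1. Xcl1, a chemokine for cross-presenting dendritic cells, stood at 875, 335 and 545 CPM with a ratio of 0.383 (0.349 to 0.421). The chemokine genes Ccl3 and Ccl4 stood at 179, 34.2 and 31.6 and at 651, 256 and 279 CPM. Single mono-IL-10 cells supplied 219 of the 601 Xcl1 UMIs and 143 of the 447 Ccl4 UMIs of that library. Without the cell richest in each gene in each library, the log2 ratios were -1.14 for Xcl1 in place of -1.38 and -0.94 for Ccl4 in place of -1.35. Ccl5 was among the most abundant transcripts, at 6107, 5500.4 and 8231 CPM, with a ratio of 0.901 (0.872 to 0.931). The type 1 transcription factor genes Tbx21 and Eomes stood at 139.7, 83.6 and 101 and at 111, 55.7 and 75.3 CPM. Of 12 type 1 genes, 4 were at least 2-fold lower and none higher, against 8.33% and 6.73% of all genes, with a median log2 ratio of -0.73. The lower level of this list was not limited to γδ cells, since the medians were -0.55 in αβ CD8 T cells and -0.46 in NK cells.

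Among genes of IL-17-producing γδ cells, Il17a, Il23r and Scart2 were rare. Il23r, the receptor for IL-23, was represented by 14, 10 and 9 UMIs in 5, 4 and 4 cells, and Scart2, a scavenger receptor gene of such γδ cells, by 21, 1 and 4 UMIs in 6, 1 and 2 cells. Both passed the minimum of 20 UMIs in the pair only with their mono-IL-10 UMIs. The text therefore gives no count or median for the 17 genes of the list, of which 9 passed. Rora, which encodes RORα, stood at 185, 82.7 and 99.5 CPM with a ratio of 0.447 (0.367 to 0.549), and Maf at 37.8, 13.8 and 24.8 CPM with a ratio of 0.364 (0.23 to 0.593). Il17a itself was detected in 0.877%, 0% and 0.667% of γδ cells. Among the 6 and 38 cells without any αβ constant gene UMI the log2 ratio of Rora was 0.69.

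Of 12 cytokine receptor genes, 1 was at least 2-fold higher and 2 were at least 2-fold lower in the IL-10/2-Trikine library, against 6.73% and 8.33% of all genes. Il2ra, the high-affinity IL-2 receptor chain CD25, stood at 33.5, 111 and 63.2 CPM with a ratio of 3.305 (2.18 to 5.25). It was detected in 14.04%, 27.2% and 18% of γδ cells. After thinning, the share of γδ cells with an Il2ra UMI had a ratio of 2.62 (0.830 to 8.30), an interval that includes 1. Il2rb and Il2rg, the signaling chains shared with IL-15, stood at 451, 347 and 453 and at 425, 246 and 324 CPM. Il10ra, the ligand-binding chain of the IL-10 receptor, stood at 50.9, 18.6 and 18.4 CPM with a ratio of 0.364 (0.246 to 0.552). Il7r, the IL-7 receptor chain of resting lymphocytes, stood at 571, 272 and 209 CPM with a ratio of 0.476 (0.426 to 0.534). Among the 6 and 38 cells without an αβ constant gene UMI its log2 ratio was 0.26.

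Cd69, an activation and retention marker, stood at 461, 154 and 237 CPM with a ratio of 0.333 (0.292 to 0.38), and Itgae, the integrin chain CD103, at 87.3, 40.2 and 44.2 CPM with a ratio of 0.461 (0.345 to 0.624). Tcf7, which encodes the stem-like and early T cell factor TCF1, stood at 357, 155 and 153 CPM with a ratio of 0.436 (0.378 to 0.505). Of 10 residency and egress genes, 3 were at least 2-fold lower and none higher, against 8.33% and 6.73% of all genes, with a median log2 ratio of -0.74. That median was -0.66 in αβ CD8 T cells, -1.16 in T cells with NK receptors but no Trdc and -0.32 in NK cells. Zbtb16, which encodes PLZF of innate-like T cells, stood at 36.4, 26.3 and 48.98 CPM with a ratio of 0.722 (0.47 to 1.15), an interval that includes 1. Of 12 innate-like T cell genes 2 were at least 2-fold lower and none higher, beside the same shares of all genes. Among the 13 genes of the checkpoint list, the transcription factor gene Tox at 212, 87.5 and 193 CPM was the only one at least 2-fold lower and none was 2-fold higher where both libraries held UMIs, against 8.33% and 6.73% of all genes, and the median log2 ratio was -0.05.

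The list of JAK-STAT feedback genes and targets was mostly lower, and the core STAT5 targets passed 2-fold at shares near those of all genes. Among 10 genes that the study lists as core STAT5 targets, Gzma alone was at least 2-fold higher and none was lower, against 6.73% and 8.33% of all genes, with a median log2 ratio of 0.10. The study compiled that list from the literature and scored it in its pancreatic tumor model, not in KP1 tumors. For KP1 it reported an enhanced IL-2 and STAT5 signature in T cells by gene set enrichment, which was not run here. In the list of JAK-STAT feedback genes and targets, 6 of 16 were at least 2-fold lower and none higher, against 8.33% and 6.73% of all genes, with a median of -0.69. That median was -0.46 in αβ CD8 T cells, -0.70 in T cells with NK receptors but no Trdc and -0.56 in NK cells. Socs3, a feedback inhibitor of STAT3 signaling, stood at 182, 72.9 and 92.2 CPM, the survival kinase gene Pim2 at 78.6, 22.05 and 28.96, Stat5b at 198, 83.2 and 112 and Myc at 77.1, 17.6 and 14.7. Among the 6 and 38 cells without an αβ constant gene UMI the log2 ratio of Socs3 was 0.76. Cish, a feedback target of STAT5, stood at 48.03, 34.5 and 32.7 CPM with a ratio of 0.719 (0.495 to 1.08).

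Immediate-early and heat shock genes, which also respond to tissue dissociation, were lower in the IL-10/2-Trikine library. Jun stood at 298, 33.99 and 45.8 CPM, Fos at 351, 70.01 and 91.1, Zfp36 at 285, 62.1 and 68.5 and the inducible heat shock gene Hspa1b at 209.6, 9.004 and 22.1. Of 14 such genes, 8 were at least 2-fold lower and none higher, against 8.33% and 6.73% of all genes, with a median log2 ratio of -1.33 in γδ cells, -0.46 in αβ CD8 T cells and -1.01 in NK cells. Their summed level was 5169, 2427 and 3480 CPM, so it was highest in the library where Ifng, Ccl3, Ccl4 and Myc were also highest. The part of sample handling in those differences was not tested.

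**Figure D4:**
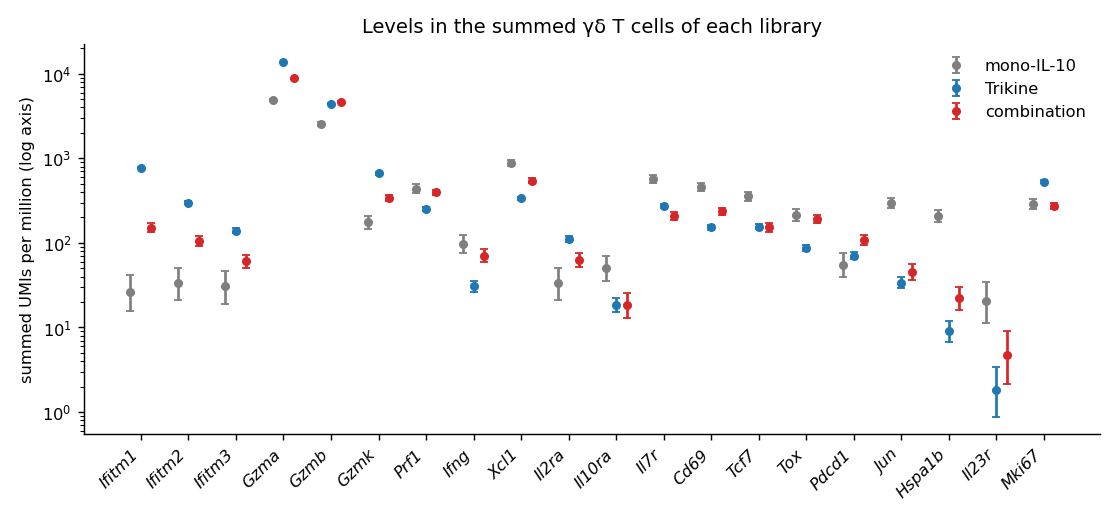
CPM from summed UMIs (log axis) of 20 genes in the γδ T cells of each library, with exact Poisson 95% intervals of the counts. Ifitm1 stood at 26.2, 764 and 152 CPM and Hspa1b at 209.6, 9.004 and 22.1 CPM in the mono-IL-10, IL-10/2-Trikine and combination libraries.

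Cell cycle genes were higher in the IL-10/2-Trikine library. Of 41 S phase genes, 19 were at least 2-fold higher and none lower, against 6.73% and 8.33% of all genes, with a median log2 ratio of 0.93. Of 53 G2M phase genes, 34 were at least 2-fold higher and none lower, with a median of 1.13. Ccne1, a cyclin of S phase entry, stood at 13.1, 61.9 and 31.6 CPM, the replication licensing gene Cdc6 at 11.6, 51.8 and 27.9 and Cdk1 at 53.8, 163 and 92.7. Cdk1 and Cdk2 were the 2 of 6 cyclin-dependent kinase genes and Mki67 listed by the study that were at least 2-fold higher, against 6.73% of all genes, a list chosen on these samples and so not independent evidence. The proliferation marker Mki67 stood at 289.6, 529 and 272 CPM. Without cells carrying a Mki67 UMI the median of the G2M phase genes was 0.17. Medians of the same sign were found in αβ CD8 T cells, at 0.76 and 0.81, and in NK cells, at 1.40 and 1.31.

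Mki67 was detected in 19.3%, 44.9% and 23.7% of γδ T cells and, after thinning to 1000 UMIs, in 9.65% (4.92 to 16.6), 20.7% (17.7 to 24) and 9.33% (6.29 to 13.2). The share in the IL-10/2-Trikine library lay above that of the other libraries, whose intervals overlapped each other. Thinned shares in cells that should divide little were 5.503%, 0% and 2.97% in B cells and 7.07%, 6.02% and 2.13% in neutrophils without Cd3. In the mono-IL-10 library the interval of γδ cells after thinning includes the value in neutrophils. Before thinning, the 199, 2879 and 517 Mki67 UMIs of the 3 libraries lay in 22, 299 and 71 γδ cells, with up to 37 in 1 cell of the mono-IL-10 library. The same shares were 11.4%, 24.3% and 11.5% in αβ CD8 T cells. Among γδ cells without any αβ constant gene UMI, thinned Mki67 was seen in 0%, 2.63% and 0%, in 6, 38 and 14 cells.

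Other genes among the 12 highest by ratio were 1500009L16Rik at 8.73, 99.04 and 27.4 CPM, the metallothionein gene Mt1 at 13.1, 68.7 and 33.2, the fatty acid binding protein gene Fabp5 at 36.4, 131 and 106 and Atp8a2 at 14.6, 58.4 and 30.02, all higher in the IL-10/2-Trikine library. Cenph and Esco2, genes of chromosome segregation and cohesion, also ranked there. Among the 12 lowest were Ramp1, a coreceptor for the neuropeptide CGRP, at 68.4, 12.5 and 30.02 CPM, and Fam169b and Kctd12. Hspa1a ranked among the lowest with Hspa1b. Some ratios rested on single cells. Ptprk ranked lowest at 82.96, 2.57 and 2.63 CPM, yet its 57 UMIs in the mono-IL-10 library came from 2 cells. Cxcl10, an interferon-induced chemokine gene, stood at 215, 26.3 and 124 CPM, and 95 of its 148 UMIs in that library came from 1 cell.

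The second comparison, combination over IL-10/2-Trikine, addresses the addition of PD-1 blockade, with the reading of the labels given above. Both comparisons share the IL-10/2-Trikine library, so a gene with an unusual level there has opposite ratios in the 2 by construction. Of 10180 genes, 269 were at least 2-fold higher and 286 at least 2-fold lower, and 218 and 183 of them had counting intervals that excluded a ratio of 1. The median over all genes was 0.03. In γδ T cells the combination library had higher levels, by at least 2-fold, of 5 of 25 interferon-stimulated genes, against 2.64% of all genes. Levels of the Ifitm genes and of most listed S and G2M phase genes were lower, the latter mostly by less than 2-fold.

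Among interferon-stimulated genes, 21 of 25 had a ratio above 1, and the 3 Ifitm genes and Usp18 had ratios below it. Usp18, which encodes a protease that removes Isg15, rested on 6, 30 and 8 UMIs, with a ratio of 0.764 (0.303 to 1.71). Isg15, a ubiquitin-like interferon product, stood at 116, 59.2 and 155 CPM, was detected in 33, 202 and 138 cells and had a ratio of 2.63 (2.23 to 3.08). Igtp and Iigp1, interferon-inducible GTPases, had ratios of 2.03 (1.69 to 2.42) and 3.44 (2.06 to 5.78). Ifitm1, Ifitm2 and Ifitm3 had ratios of 0.199 (0.176 to 0.224), 0.356 (0.306 to 0.412) and 0.434 (0.354 to 0.529). Of 25 such genes, 5 were at least 2-fold higher and 3, all Ifitm genes, at least 2-fold lower, against 2.64% and 2.81% of all genes, with a median log2 ratio of 0.37 in γδ cells, 0.80 in αβ CD8 T cells and 0.65 in NK cells. Cxcl10 ranked first of the genes that reached 50 CPM in one library of the pair, with a ratio of 4.71 (3.81 to 5.84), in 14, 60 and 38 cells.

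Of the 13 genes of the checkpoint list, Tox and Tnfrsf4, neither of which encodes an inhibitory receptor, were at least 2-fold higher with the combination, and none was 2-fold lower, against 2.64% and 2.81% of all genes. The median log2 ratio of the list was 0.51. Tox, which encodes a transcription factor of chronically stimulated T cells, stood at 212, 87.5 and 193 CPM with a ratio of 2.204 (1.92 to 2.53), so its level resembled that in the mono-IL-10 library. Pdcd1, which encodes PD-1, stood at 55.3, 70.9 and 108 CPM with a ratio of 1.53 (1.29 to 1.82) and was detected in 16.7%, 25.1% and 26.7% of γδ cells, against 29.4%, 44.9% and 49.6% of αβ CD8 T cells. Lag3, Tigit and Entpd1 (CD39) had ratios of 1.43 (1.18 to 1.72), 1.71 (1.25 to 2.33) and 1.76 (1.46 to 2.12), while Havcr2 (TIM-3) had a ratio of 0.618 (0.472 to 0.799). Tnfrsf4, the costimulatory receptor OX40, was represented by 0, 29 and 24 UMIs and had a ratio of 2.37 (1.32 to 4.22). Il21r, the IL-21 receptor, had a ratio of 2.09 (1.82 to 2.399) and Irf8, an interferon regulatory factor, a ratio of 2.09 (1.91 to 2.29).

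Gzma, Gzmk, Gzmb, Prf1 and Ifng differed less between these libraries than in the first comparison, whereas Ccl5 differed more. Gzma had a ratio of 0.641 (0.63 to 0.652), Gzmk 0.51 (0.468 to 0.554) and Gzmb 1.06 (1.03 to 1.09), while Prf1 had a ratio of 1.58 (1.44 to 1.73) and Ccl5 1.496 (1.47 to 1.53). Ifng had a ratio of 2.29 (1.81 to 2.89), but 46 of its 134 UMIs in the combination library came from 1 cell. Without the cell richest in Ifng in each library the log2 ratio was 0.68 instead of 1.19. Of 11 cytotoxic genes none passed 2-fold in either direction, against 2.64% higher and 2.81% lower of all genes, with a median log2 ratio of 0.19. Il2ra stood lower with a ratio of 0.571 (0.466 to 0.696). S1pr1, the egress receptor for sphingosine 1-phosphate, and its activator Klf2 had ratios of 0.476 (0.377 to 0.595) and 0.613 (0.547 to 0.685), whereas Cd69 had a ratio of 1.54 (1.37 to 1.73). Of 11 residency and egress genes, S1pr1 was the only one at least 2-fold lower and 2 were at least 2-fold higher, against 2.81% and 2.64% of all genes. These were Ccr7, a chemokine receptor gene of resting T cells, at 13, 61 and 53 UMIs with a ratio of 2.49 (1.69 to 3.66), and S1pr5, another sphingosine 1-phosphate receptor, at 2, 13 and 12 UMIs with a ratio of 2.65 (1.103 to 6.29). The median log2 ratio of the list was 0.17.

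G2M and S phase genes were lower in the combination library, although few S phase genes passed 2-fold. Of 41 S phase genes, 1 had a ratio above 1, and 31 had a counting interval below 1. Of 53 G2M phase genes, 17 were at least 2-fold lower and none higher, against 2.81% and 2.64% of all genes, with a median log2 ratio of -0.80, and of 41 S phase genes 3 were at least 2-fold lower and none higher, with a median of -0.46. Plk1 and Ckap2l, mitotic genes, had ratios of 0.322 (0.22 to 0.457) and 0.342 (0.255 to 0.45), and Mki67 0.515 (0.468 to 0.565). Cenpe, Cenpf, Knstrn and Rad51ap1, also genes of division and repair, ranked among the 12 lowest. Without cells carrying a Mki67 UMI the median of the G2M phase genes was -0.08. The medians over all cells were -0.68 and -0.47 in αβ CD8 T cells. Of 14 immediate-early and heat shock genes, 2 were at least 2-fold higher and none lower, against 2.64% and 2.81% of all genes, with a median of 0.56. Other genes of the 12 highest were Ier5l, Bend4, Nr4a3, Marchf3, Kdm5b and Nfkbiz, with ratios from 2.12 to 3.56. The direction for Nfkbiz reversed among the few cells without an αβ constant gene UMI. Rasgrp2 and the predicted gene Gm43305 were among the 12 lowest, with ratios of 0.414 (0.33 to 0.514) and 0.315 (0.214 to 0.45). Il1b ranked second lowest, but 87 and 41 of its 286 UMIs in the IL-10/2-Trikine library came from 2 cells, and with called doublets removed its log2 ratio was 0.28 in place of -1.94.

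**Figure D5:**
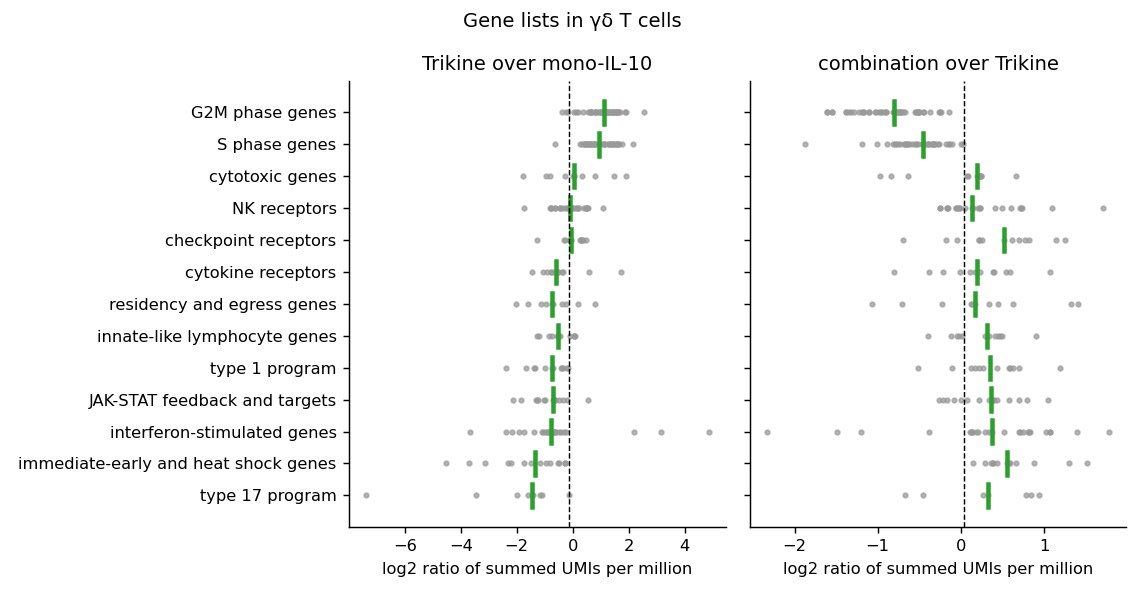
Log2 ratio of CPM for each gene (gray points) of 13 lists in γδ T cells, with the list median (green bar) and the median over all genes measured (dashed line), for both comparisons on separate scales. G2M phase genes had medians of 1.13 and -0.80.

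Transcripts of other cells were present in the γδ cells at levels that differed between libraries. The 10 macrophage markers summed to 81.5, 48.0 and 87.4 CPM, with Fcgr1 at 0 in the mono-IL-10 library. Of 8 neutrophil markers, summing to 34.9, 57.0 and 14.2 CPM, the defining genes S100a8, S100a9, Csf3r, Cxcr2, Retnlg and Mmp9 were at 0 in the mono-IL-10 and combination libraries, and S100a8 and S100a9 were limited by the rule. The 8 B cell markers summed to 345, 70.4 and 57.4 CPM. In the mono-IL-10 library 70 and 20 of the 105 Igkc UMIs came from 2 cells. Ms4a1, Pax5 and Ebf1 were at 0 in the IL-10/2-Trikine library. The difference was not limited to those 2 cells. After thinning, the share of γδ cells with an Ighm or Igkc UMI had a ratio of 0.397 (0.251 to 0.628) in IL-10/2-Trikine over mono-IL-10. In combination over IL-10/2-Trikine it was 0.392 (0.195 to 0.785). Red cell markers gave 1, 0 and 0 UMIs. The part of these transcripts in the differences between libraries was not tested.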

How the data were processed

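Live CD45+ cells from the KP1 tumors of 3 groups went into 1 droplet library per group (10x 3′ v3.1 single-cell RNA sequencing). The authors deposited raw UMI counts per gene and barcode for 33696 genes, empty droplets included, and the file headers name Cell Ranger 8.0.0. The sources disagree on the build (mm10 in the labels, GRCm39 in the methods), so no coordinates were taken from the files. Sequences and positions of receptor constant genes were read from GRCm38 with GENCODE M21.

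UMIs were summed over the γδ T cells of each library and scaled to CPM. Shares carry exact binomial (Clopper-Pearson) 95% intervals, ratios of shares carry log-scale intervals, and CPM ratios were given intervals from the exact binomial of 1 library's UMIs in the pair. All cover counting error only. The share of B cells with Trdc, seen in 0 cells, was given with the limit of 3 counts, and other shares of 0 were given as 0%. No test between treatments was run, since each group is 1 library. Genes with at least 20 UMIs in a pair of libraries were compared. Named genes were the 12 highest and 12 lowest ratios among genes reaching 50 CPM in 1 library of the pair, without sex-linked Xist and Y genes and without mitochondrial, hemoglobin, ribosomal or antigen receptor genes, plus members of 27 gene lists. Receptor genes used by the selection were given as description. Detection was also compared after thinning each cell to 1000 UMIs, leaving out shallower cells, of which the γδ gate held none. Doublets were called with Scrublet in scanpy 1.11.5 and kept, and their removal was an alternative. The libraries differed in depth, with median UMIs per kept cell of 4774, 5562 and 4273. B cells were gated by at least 2 Cd79a UMIs, macrophages by at least 10 C1qa and C1qb UMIs and neutrophils by at least 20 S100a8 and S100a9 UMIs, each without Cd3. Alternatives varied the selection, scaling (edgeR 4.0.16 factors), UMI minimum and thinning. Python 3.11.15, scipy 1.17.1 and R 4.3.3 were used, and the scripts were tested on simulated data.

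The rule for the γδ T cells and the gene lists were chosen with earlier results of these data known. A few genes are not reported here.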

Additional observations from a re-analysis of the deposited data

How the results depend on the processing

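The share of γδ T cells was highest in the IL-10/2-Trikine library under every alternative tried. Its ratio to mono-IL-10 was 3.73 over T cells, 8.09 when the rule was applied after thinning (15, 135 and 66 cells) and 4.44 without cells carrying Trac. The ratio of the combination to the IL-10/2-Trikine library was 0.454 over T cells, 0.442 after thinning, 0.442 without Trac and 0.310 without any αβ constant gene UMI, a setting that left 6, 38 and 14 cells. The alternatives without Trac, without B cell transcripts, without the richest cell, without Klrb1b and Cd244a and with intervals that exclude a ratio of 1 were chosen after seeing the data. Thinning to 1000 UMIs lowered the share with an αβ constant gene to 69.3%, 70.3% and 67.3% and the share with an NK receptor to 84.2%, 95.2% and 94.0%. The NK receptor share was 100%, 97.4% and 100% without αβ constant gene UMIs, and 100% in the IL-10/2-Trikine library with at least 2 Trdc UMIs. The Mki67 share scaled with the depth kept. It was 14.1% at 500 UMIs and 30.7% at 2000 UMIs in the IL-10/2-Trikine library, and 3.33% and 14.0% in the combination library. It was 13.04% in the IL-10/2-Trikine library without Trac, and 0%, 2.63% and 0% without αβ constant gene UMIs. Genes at least 2-fold higher in the IL-10/2-Trikine than in the mono-IL-10 library numbered 250 without αβ constant gene UMIs, 318 without cells carrying Mki67 and 356 with intervals that exclude a ratio of 1. Those at least 2-fold lower numbered 497 with 50 UMIs required, 1246 with 10 required, 130 without αβ constant gene UMIs and 475 without Mki67. In the second comparison the higher genes numbered 103 with 50 UMIs, 532 with 10 and 103 without αβ constant gene UMIs. The lower genes numbered 134 with 50 UMIs, 440 with 10, 168 without Mki67, 487 without Trac and 183 with intervals that exclude a ratio of 1. The cause of these changes was not tested, other than fewer cells or genes entering.

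Of 110 named gene ratios past 2-fold, 1059 of 1070 recomputed values kept their direction and 977 stayed past 2-fold. These counts are not a full test of stability. A changed UMI minimum only removes genes and cannot alter a ratio, and a changed scaling shifts all ratios alike. A gene below the UMI minimum in a smaller set of cells gave no value there. In the first comparison some log2 ratios reversed among the 6 and 38 cells without αβ constant gene UMIs. They were 0.69 for Rora, 0.26 for Il7r, 0.31 for Nfkbiz and 0.76 for Socs3. The interferon-stimulated median was 1.27 there. This median covers only listed genes that reached the UMI minimum in those cells. It is therefore not comparable with the median over all γδ cells. Gzmc reversed to 3.22 without Mki67, 2.84 without Trac and 2.45 without the richest cell. Igkc was at 0.16 and the B cell marker median at 0.0035 without Mki67, and Igkc was at 0.00092 without cells carrying B cell transcripts. In the second comparison Il1b, the only neutrophil marker measured, was at 0.28 with called doublets removed, and Nfkbiz was at -0.13 without αβ constant gene UMIs. No paired analysis was possible because each group is 1 library with no replicate numbers. The least precise values were those of the mono-IL-10 library, which gave 114 γδ cells.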
